A study of Mus musculus with 15 samples.

Results

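Silencing of germline genes outside the germ line is a well-known task of promoter DNA methylation, and 40 mouse genes of this kind were followed in embryonic stem cells (ESCs) depleted of TET1 or TET2. The genes were taken by name, as members of the meiosis, piRNA and germ cell programmes that promoter methylation keeps silent in many cell types. The rule names no measured value, but the list was chosen with earlier results of these data known. Shares of members set beside all genes are therefore a description. All 40 were found by symbol among the 26061 genes of the expression table, and 39 of them were among the 19490 genes tested. Methylation of their promoters was not analysed here.

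Total RNA depleted of rRNA was sequenced from E14 cells, an ESC line of the 129/Ola background grown without feeders in serum and LIF. Each of 3 groups held 5 libraries, made after lentiviral delivery of a pLKO.1 short hairpin RNA (shRNA): a non-targeting hairpin (shScr), a hairpin against Tet1 (shTet1) or one against Tet2 (shTet2). All cells, controls included, went under puromycin 24 h after infection, and were harvested once selected for 3 days. The model is a partial knockdown with 1 hairpin per target, so that an effect of a hairpin and an effect of the lost enzyme cannot be told apart. The labels do not say whether libraries of a group came from separate cultures, and p-values therefore measure the spread between these libraries, which may be technical.

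Meiotic genes, piRNA pathway genes and many testis genes carry CpG-rich promoters that are methylated in somatic cells and become active when primordial germ cells lose methylation. In ESCs, a Polycomb complex called PRC1.6, which contains MGA, MAX, E2F6, L3MBTL2 and PCGF6, also occupies many of these promoters, through E-box and E2F sequences. TET enzymes oxidise methylated cytosine, a step towards its removal, and germline promoters are among the places where this activity has been studied.

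The libraries held 15258291 to 35432425 reads in genes. Tet1 in shTet1 was at 27.8% of its shScr mean (4534 ± 585 against 16309 ± 2282 normalised reads, SD, n = 5 each) and Tet2 in shTet2 at 26.6% (2732 ± 375 against 10277 ± 1104). All 9 markers of ESCs looked for, among them Pou5f1, Nanog and Sox2, were detected in every library, and of 8 genes of late spermatogenic cells Prm1 and Tnp1 had 0 reads in every library and the other 6 had at most 9.70 normalised reads in any. The 1451 genes for olfactory and vomeronasal receptors, sensory neuron genes by their known role, set 4 libraries apart by their reads: shScr replicate 4, shTet1 replicates 3 and 4 and shTet2 replicate 4 had 54.5 to 64.7 such reads per 1000000 gene reads (RPM) and the other 11 libraries had 11.1 to 26.5. A principal component with 37.9% of the variance of the deviations from group means also placed replicates 1 and 2 of each group on 1 side and replicates 3 to 5 on the other, although the labels name no batch. They give QIAzol or a Zymo kit for RNA extraction without saying which library had which, so that the replicate sets and the extraction method cannot be told apart. Among the 20 members whose values are given in every library, the difference had opposite signs in the 2 replicate sets for 4 in shTet1, 5 in shTet2 and 1 between the knockdowns.

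Most members were transcribed in these ESCs, and their levels spanned a wide range. Of the 40, 37 had reads in all 15 libraries. The mean was at least 1000 normalised reads (reads divided by the size factor of the library) for 6 members, 100 to 1000 for 19, 10 to 100 for 11 and under 10 for 4. Per length, as reads per kilobase of exon and per 1000000 gene reads (RPKM), Sycp3 was highest (94.7 on average over 15 libraries), followed by Rnf17 (56.8), Syce1 (52.2), Hormad1 (21.1) and Mael (18.4). The lowest were Dpep3 (0.158), Mei1 (0.0541), Tdrd6 (0.0283) and Spo11 (0.00439). In bulk RNA, fewer cells that express a gene and less RNA per cell cannot be told apart, so these levels may come from all cells or from a subset.

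**Figure D1:**
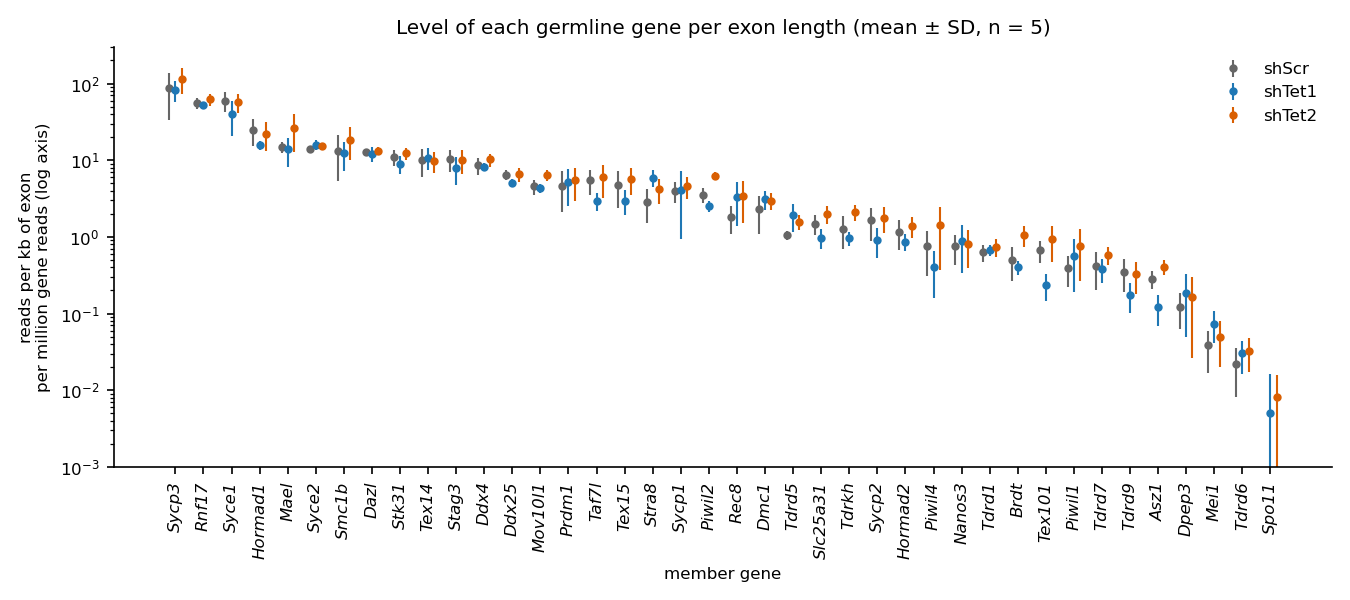
Level of each of the 40 germline genes, in reads per kilobase of exon and per 1000000 gene reads on a log axis, with points for the mean and bars for the SD of 5 libraries in shScr, shTet1 and shTet2. Sycp3, Rnf17 and Syce1 lie above 30 in every group, whereas Mei1, Tdrd6 and Spo11 lie below 0.1; bars that reach 0 are cut at the axis, and the shScr mean of Spo11, which is 0, is not drawn.

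The most abundant members differed in how evenly they were expressed. Sycp3 (chromosome 10, 87922314 to 87935981, plus strand; mm9), a structural protein of the meiotic chromosome axis, had 1415, 1665, 2848, 4634 and 1525 normalised reads with shScr, 1805, 2466, 2036, 3185 and 1762 with shTet1, and 3295, 2912, 2245, 4608 and 2263 with shTet2, in the order of replicates 1 to 5 as in all values that follow. Replicate 4 was the highest in all 3 groups, and the groups overlapped. Exons of Chpt1 on the opposite strand cover 52.2% of the exonic bases of Sycp3, and whether strand was used in counting is not stated, so that part of these reads may belong to Chpt1, which had 317 ± 60.3, 385 ± 29.2 and 361 ± 62.9 normalised reads with shScr, shTet1 and shTet2 (SD, n = 5). Rnf17 (chromosome 14, 57021534 to 57143869, plus strand), a tudor domain protein of germ cell granules, had 5393, 6894, 6159, 7825 and 6227 normalised reads with shScr, 5285, 5301, 5309.8, 6377 and 6930.1 with shTet1, and 6097, 7256, 5852, 8337 and 6394 with shTet2. The groups overlapped throughout. Rnf17 differed by −0.15 in shTet1 (95% limits of −0.44 and 0.13) and by 0.06 in shTet2 (−0.22 and 0.35) on the log2-like scale of the deposited values.

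Promoter sequences were examined next, because the rule that chose the genes speaks of their promoters but used no sequence. Windows of 250 bases before the RefSeq start site (GRCm38.p6) were present in the promoter table for 35 of the 40 members, the others being Piwil2, Rnf17, Tex15, Tdrd6 and Spo11. The sequence CACGTG, an E-box that reads the same on both strands, occurred in 14 of the 35 windows (40%), against 6.04% of 27025 windows of all genes. The E2F core GCGGGA, or its reverse complement TCCCGC, occurred in 11 (31.4%, against 16.9%), and both motifs in 4 (11.4%, against 1.47%), namely Ddx4, Hormad1, Mael and Sycp3. The median window of the members held 15 CpG sites, against 6 for all genes. The observed over expected CpG ratio was at least 0.6 in 22 of the 35 (62.9%, against 34.5%). The windows of all genes were not filtered by gene type. Windows of Prdm1, Mei1, Stra8, Tdrd5 and Stag3 lie wholly inside the GENCODE models of these genes, and which start these cells use was not tested. Such matches describe the sequence and not binding. Members with a CpG ratio of at least 0.6 had a median level of 7.53 RPKM, from 0.271 to 94.7. The 13 with a lower ratio, Mei1 and Stra8 among them, had 0.816, from 0.0541 to 4.33. Levels of all genes were not split by CpG ratio, so whether this is particular to the members was not tested.

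**Figure D2:**
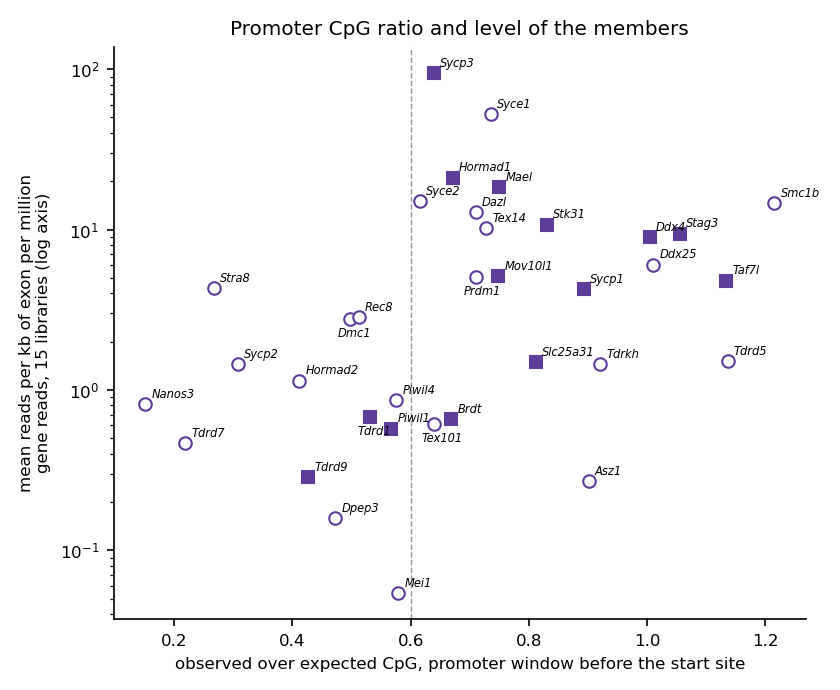
Observed over expected CpG ratio of the 250 bases before the start site against the mean level per length over 15 libraries on a log axis, for the 35 members with a promoter entry; filled squares hold an E-box, open circles do not, and the dashed line marks a ratio of 0.6. All members above a level of 5 lie to the right of the line, whereas members below 1 lie on both sides.

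The windows are shown for 4 members past the test in a comparison below (Asz1, Brdt, Tdrkh and Tex101), for the 2 members of highest level per length among those with an entry (Sycp3 and Syce1) and for the 2 of lowest level (Mei1 and Dpep3). They are written 5′ to 3′ in the direction of transcription, with E-boxes and E2F cores in capitals, and were placed in the mm9 genome by exact match. The stretches of Brdt and Sycp3 end where the first GENCODE exon begins, 35 and 18 bases short of the RefSeq start.
Asz1 (chr6:18059062-18059311, minus strand): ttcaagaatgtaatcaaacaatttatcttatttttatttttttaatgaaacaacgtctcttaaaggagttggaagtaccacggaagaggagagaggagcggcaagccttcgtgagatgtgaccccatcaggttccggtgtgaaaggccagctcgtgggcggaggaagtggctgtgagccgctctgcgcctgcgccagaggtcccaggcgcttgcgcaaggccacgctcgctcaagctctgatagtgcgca
Brdt (chr5:107759963-107760177, plus strand): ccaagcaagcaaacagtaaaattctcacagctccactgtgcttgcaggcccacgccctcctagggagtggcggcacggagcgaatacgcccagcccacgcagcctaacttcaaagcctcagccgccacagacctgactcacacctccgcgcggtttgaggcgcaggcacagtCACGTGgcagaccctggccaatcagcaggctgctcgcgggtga
Tdrkh (chr3:94216916-94217165, plus strand): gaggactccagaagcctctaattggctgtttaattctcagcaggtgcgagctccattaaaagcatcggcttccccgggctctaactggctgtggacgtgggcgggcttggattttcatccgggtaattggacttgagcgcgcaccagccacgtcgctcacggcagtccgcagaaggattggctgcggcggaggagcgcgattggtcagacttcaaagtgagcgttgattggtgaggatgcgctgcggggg
Tex101 (chr7:25457070-25457319, minus strand): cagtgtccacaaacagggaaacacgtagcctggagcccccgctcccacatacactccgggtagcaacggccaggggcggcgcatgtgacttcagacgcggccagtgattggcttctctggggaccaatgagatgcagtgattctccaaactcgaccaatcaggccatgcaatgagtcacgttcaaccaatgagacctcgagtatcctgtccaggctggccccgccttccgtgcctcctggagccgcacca
Sycp3 (chr10:87922082-87922313, plus strand): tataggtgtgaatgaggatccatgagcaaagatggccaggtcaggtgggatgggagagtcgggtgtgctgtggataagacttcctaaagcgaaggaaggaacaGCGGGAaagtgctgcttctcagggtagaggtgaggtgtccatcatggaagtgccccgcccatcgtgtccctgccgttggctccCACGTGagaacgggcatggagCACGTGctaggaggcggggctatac
Syce1 (chr7:147973754-147974003, minus strand): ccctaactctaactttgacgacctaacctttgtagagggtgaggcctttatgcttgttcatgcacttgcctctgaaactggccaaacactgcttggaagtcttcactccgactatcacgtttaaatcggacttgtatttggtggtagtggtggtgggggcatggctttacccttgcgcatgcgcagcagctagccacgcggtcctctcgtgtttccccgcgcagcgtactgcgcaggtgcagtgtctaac
Mei1 (chr15:81912656-81912905, plus strand): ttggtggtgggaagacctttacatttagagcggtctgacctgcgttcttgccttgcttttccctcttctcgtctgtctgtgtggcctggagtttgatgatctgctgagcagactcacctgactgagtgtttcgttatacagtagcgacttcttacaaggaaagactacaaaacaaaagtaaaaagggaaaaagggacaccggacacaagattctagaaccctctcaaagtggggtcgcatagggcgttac
Dpep3 (chr8:108503320-108503569, minus strand): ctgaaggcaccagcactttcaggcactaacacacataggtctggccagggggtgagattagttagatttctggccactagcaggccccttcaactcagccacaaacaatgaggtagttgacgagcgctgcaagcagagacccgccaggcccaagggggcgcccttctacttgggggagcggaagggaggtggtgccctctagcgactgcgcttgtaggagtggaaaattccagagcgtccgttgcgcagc
The Brdt window held 1 E-box, which begins 78 bases before the RefSeq start. Sycp3 held 2 E-boxes, at 64 and 43 bases, and 1 E2F core at 147 bases. In the other 6 windows neither sequence was found. The Mei1 window lies inside the longer GENCODE gene model of Mei1, away from its exons.

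To ask whether germline genes depend on either TET, the members were compared between the groups. Differences are between group means of the deposited variance-stabilised values, which approach log2 for well-covered genes and shrink the changes of genes with few reads. A member was called where limma, adjusted by Benjamini-Hochberg over all genes tested, gave a p under 0.05. The same shScr libraries stand in both comparisons with the controls, so that these are not independent of each other.

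Upon TET1 depletion, 0 of the 39 members tested passed the threshold in limma, where 0.0462% of all genes were called higher and 0.0257% lower. More members lay below than above the controls: 25 of 39 had a lower mean in shTet1, with a median difference of −0.15, against 0.01 for all genes. At an unadjusted limma p under 0.05, 10 members were lower (25.6% of those tested, against 5.23% of all genes) and 2 were higher (5.13%, against 6.55%). Libraries with the same replicate number deviated together in this comparison, and the replicate number was therefore also fitted as a block. The pairing itself was not tested. This block fit held all 15 libraries, and so also joined replicate 3 of shTet2 and shScr, whose deviations had r = 0.00789 across genes. How far the shared deviation goes beyond the split of replicates 1 and 2 from 3 to 5 was not tested. With the replicate number as a block, 8 members passed as lower (Tex15, Taf7l, Stag3, Piwil2, Syce1, Piwil4, Sycp2 and Hormad1) and 1 as higher (Tdrd5), where 2.26% and 2.54% of all genes did.

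Upon TET2 depletion, 1 member, Piwil2, was called higher and 0 lower in limma, where 0.221% and 0.169% of all genes were called. Of the 39, 30 had a higher mean in shTet2, with a median difference of 0.17, against 0.04 for all genes, of which 56.8% had a higher mean. At an unadjusted limma p under 0.05, 5 members were higher (12.8%, against 8.00% of all genes) and 0 lower (against 3.58%). The replicate block was not taken as the pairing in this comparison, because replicate 3 had r = 0.00789. With it, 4 members passed as higher (Piwil2, Brdt, Mael and Mov10l1) and 0 as lower, where 840 of all 19490 genes passed in either direction. Centring each library on its median moved the median of all genes by −0.11 in this comparison, and the median of the members was then 0.06, against −0.07 for all genes, with 0 members called in limma.

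The knockdowns were then compared directly. Between shTet2 and shTet1, 5 members were called higher in shTet2 (12.8% of those tested) and 0 lower in limma, where 2.88% of all genes were called higher and 1.36% lower. Of the 39, 31 had a higher mean in shTet2, with a median difference of 0.35, against 0.01 for all genes. At an unadjusted limma p under 0.05 there were 14 members higher (35.9%, against 9.32%) and 0 lower (against 6.37%). With the replicate number as a block, 14 members passed as higher and 0 as lower, where 6.52% and 4.65% of all genes did. The 9 not called without the block were Tex15, Piwil4, Taf7l, Mael, Mov10l1, Slc25a31, Sycp2, Stag3 and Syce1. Without the 4 libraries of high receptor share only Piwil2 of the members passed, and the median difference of the members was 0.21. In the fits without 1 library each, 3 to 6 members were called. Tdrkh lost its call in 5 of the 15 fits and Tex101 in 6. Slc25a31 passed without shTet1 replicate 5 (0.71, Benjamini-Hochberg adjusted limma p of 0.0389) or shTet2 replicate 3 (0.72, 0.0358). Taf7l passed without shTet2 replicate 3 (0.96, 0.0292) and Piwil4 without shTet2 replicate 5 (1.51, 0.0161). Tex15 passed without shScr replicate 2 (0.87, 0.0478), a library outside this comparison, so that its difference was unchanged. Calls over all genes in these fits are not given here. The gains can therefore not be read as particular to these members.

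**Figure D3:**
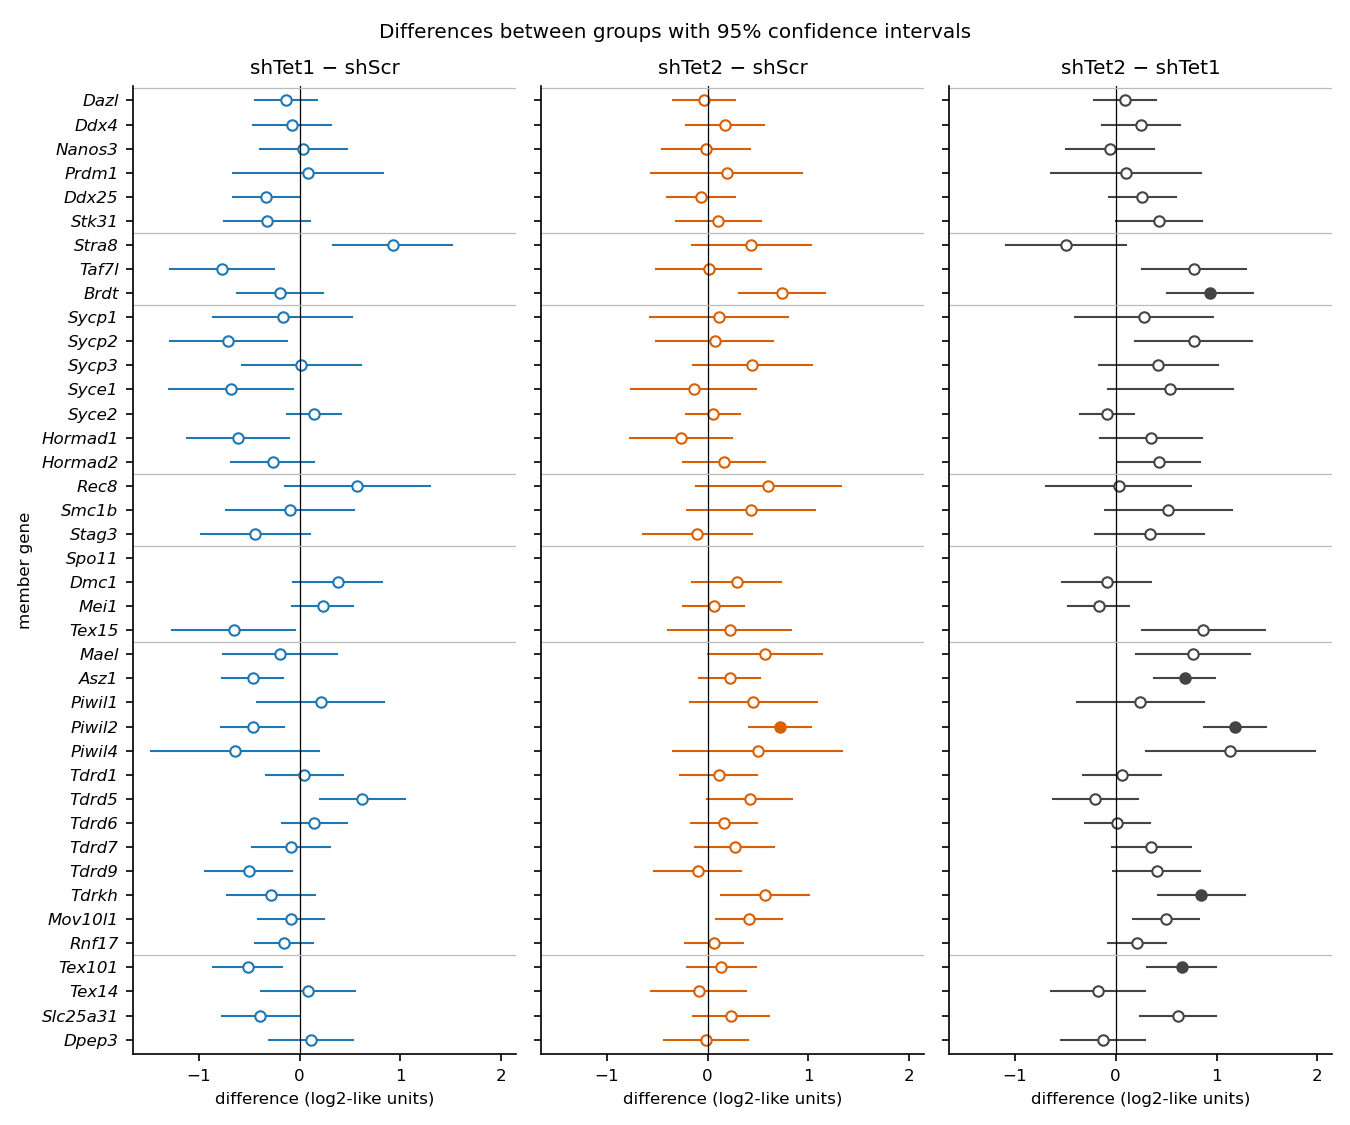
Differences of the 39 tested members between group means of the variance-stabilised values (log2-like units), with 95% confidence intervals from limma, for shTet1 minus shScr, shTet2 minus shScr and shTet2 minus shTet1; filled points have an adjusted p under 0.05 and grey lines separate the roles. No point is filled in the shTet1 panel, 1 (Piwil2) in the shTet2 panel, and 5 (Brdt, Asz1, Piwil2, Tdrkh and Tex101) in the panel that compares the knockdowns.

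**Figure D4:**
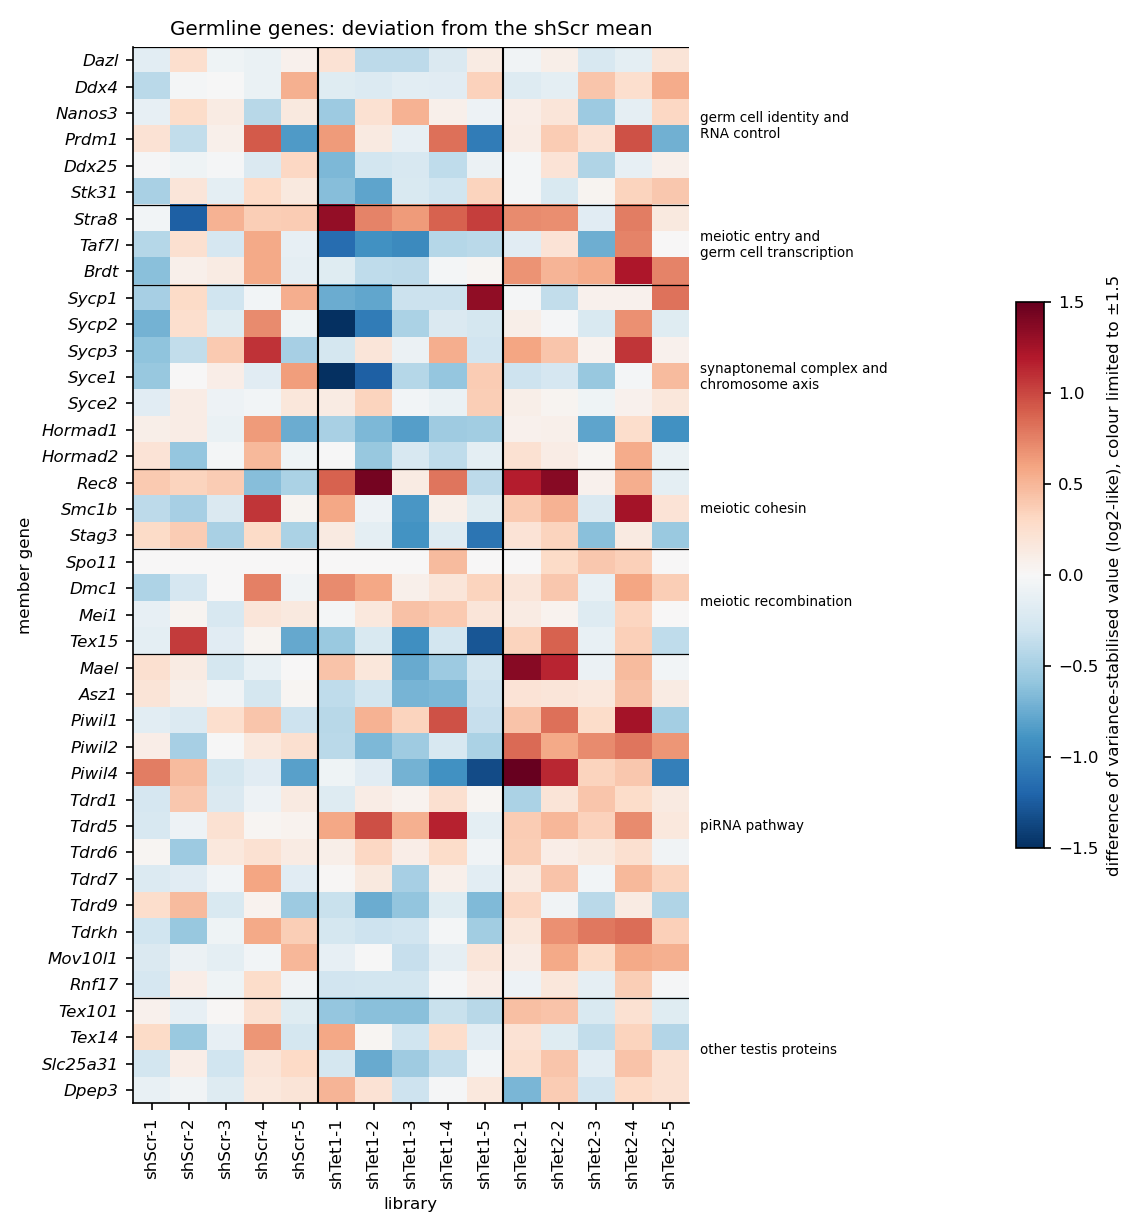
Variance-stabilised value of each member in each of 15 libraries as deviation from the mean of the 5 shScr libraries, with genes in rows by role and colours limited to ±1.5. Taf7l, Sycp2, Syce1, Asz1, Piwil2 and Tex101 are blue in most shTet1 libraries, whereas Brdt, Piwil2 and Tdrkh are red in all 5 shTet2 libraries.

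Among the 6 members of germ cell identity and RNA control, 0 passed in any comparison in limma, and at an unadjusted p under 0.05 only Stk31 differed, between the knockdowns. Dazl, an RNA-binding protein of early germ cells, and Ddx4, the mouse vasa helicase, ranged over 775 to 1040.0 and 398 to 791 normalised reads with shScr, 653 to 1012 and 461 to 690.4 with shTet1, and 727 to 995 and 465 to 804 with shTet2. Their differences were −0.13 and −0.08 in shTet1 and −0.03 and 0.18 in shTet2. Nanos3, which keeps primordial germ cells alive, was low, with 4.44 to 18.8 normalised reads in shScr. Prdm1, a transcription factor of germ cell specification, varied widely within groups, from 267 to 1004 in shScr, with replicate 4 highest and replicate 5 lowest in all 3 groups. Ddx25, a testis RNA helicase, and Stk31, a tudor domain protein of germ cells, differed by −0.33 and −0.32 in shTet1 (Benjamini-Hochberg adjusted limma p of 0.431 and 0.581).

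The 3 members of meiotic entry and germ cell transcription differed from each other. Stra8 (chromosome 6, 34870163 to 34889342, plus strand), which retinoic acid induces at the entry into meiosis, had 100.3, 27.6, 163, 144 and 145 normalised reads with shScr, 312, 197, 180.1, 219.8 and 249 with shTet1, and 192, 190.0, 88.7, 202 and 119 with shTet2. All shTet1 libraries lay above all shScr libraries, and shScr replicate 2 was the lowest of the 15. Its difference in shTet1 was 0.92 ± 0.282 (SE, 95% limits of 0.33 and 1.51, Benjamini-Hochberg adjusted limma p of 0.178), the largest increase of the members there. The exact permutation p was 0.00794, the smallest that 5 against 5 libraries allow. It is unadjusted, and every gene whose 2 groups do not overlap reaches it. In shTet1 against shScr these were 1 member higher and 2 lower, and 293 and 217 of all 19490 genes tested. In shTet2 the difference was 0.43 (Benjamini-Hochberg adjusted limma p of 0.613). The replicate sets were far apart: in shTet1 the difference was 1.67 within replicates 1 and 2 and 0.43 within replicates 3 to 5, and in shTet2 it turned from 1.34 to −0.17.

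Taf7l (chromosome X, 130994657 to 131011029, minus strand) encodes a germ cell form of a subunit of the general transcription factor TFIID. It had 186, 317, 216, 409 and 238 normalised reads with shScr, 101, 125, 119, 187 and 191 with shTet1, and 230.3, 309, 145, 467 and 264 with shTet2. The shTet1 libraries were low, overlapping shScr only at its lowest library, and the shTet2 libraries reached past both ends of the control range. The difference in shTet1 was −0.77 ± 0.248 (SE, 95% limits of −1.29 and −0.25, Benjamini-Hochberg adjusted limma p of 0.200), the largest decrease of a member there, and it was lower in 5 of 5 same-numbered pairs. With the replicate block its limma Benjamini-Hochberg adjusted p was 0.0126.

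Brdt (chromosome 5, 107760178 to 107816077, plus strand) encodes a bromodomain protein of the testis that binds acetylated histones. It had 25.6, 59.0, 61.7, 95.4 and 47.2 normalised reads with shScr, 44.5, 35.2, 34.5, 52.9 and 56.4 with shTet1, and 106, 90.8, 94.6, 168 and 113 with shTet2. The shTet2 libraries lay above all shTet1 libraries and above 4 of the 5 shScr libraries, and shScr replicate 4, one of those with high receptor share, was the exception. Brdt rose in shTet2 relative to shTet1 by 0.93 ± 0.203 (SE, 95% limits of 0.51 and 1.36, Benjamini-Hochberg adjusted limma p of 0.0115), a 2.56-fold ratio of mean normalised reads. Against shScr the difference was 0.74 ± 0.203 (SE, 95% limits of 0.31 and 1.17, Benjamini-Hochberg adjusted limma p of 0.119). Without the 4 libraries of high receptor share, the difference between the knockdowns was 0.80 (Benjamini-Hochberg adjusted limma p of 0.0867).

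**Figure D5:**
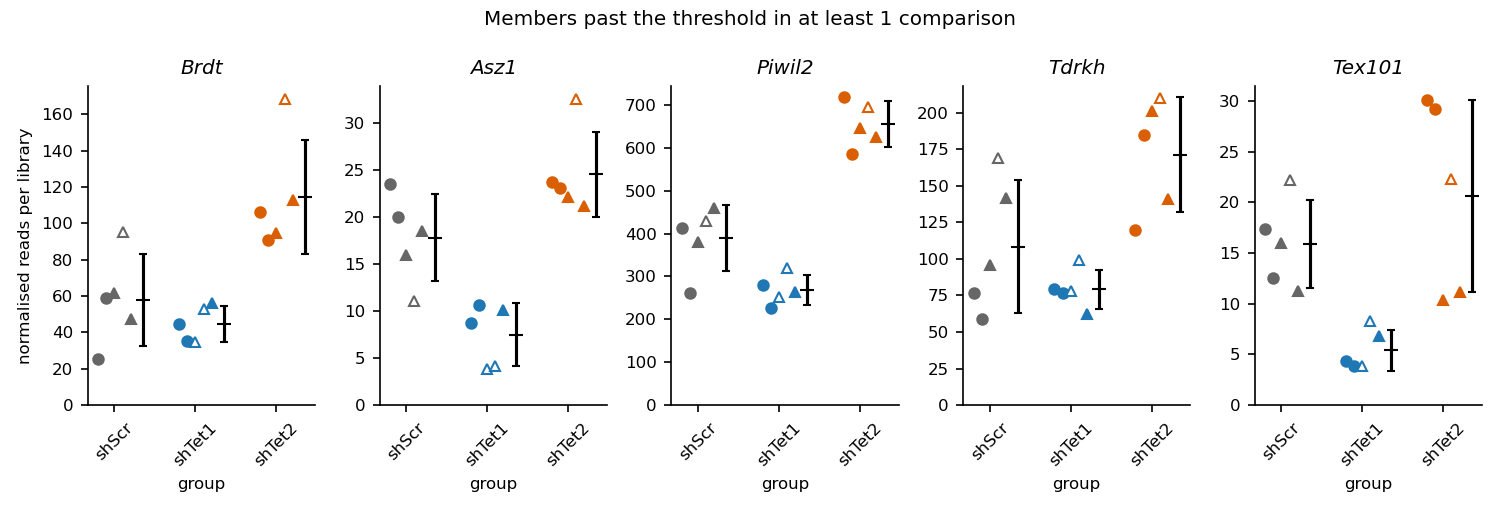
Normalised reads of the 5 members with an adjusted p under 0.05 in at least 1 comparison, in each library of shScr (grey), shTet1 (blue) and shTet2 (orange); circles are replicates 1 and 2, triangles replicates 3 to 5, open triangles the 4 libraries of high receptor share, and black bars the mean and SD of 5 libraries. The shTet2 libraries lie above all shTet1 libraries for each gene, and for Piwil2 also above all shScr libraries.

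Of the 7 members that build the synaptonemal complex and the chromosome axis, 0 passed in limma without the block. In shTet1, 5 of the 7 had a lower mean (47.6% of all genes did), 3 of them with an unadjusted p under 0.05 (5.23% of all genes), and the median difference was −0.27. Sycp2 (chromosome 2, 178079998 to 178142390, minus strand), a protein of the lateral element, had 112, 249.7, 176, 357 and 194 normalised reads with shScr, 49.6, 81.9, 138, 171 and 165 with shTet1, and 219, 202, 170.0, 351 and 176 with shTet2. Replicates 1 and 2 of shTet1 were the lowest of all libraries, and the other 3 lay within the range of shScr. Sycp2 differed by −0.71 ± 0.277 (SE, 95% limits of −1.29 and −0.13, Benjamini-Hochberg adjusted limma p of 0.304) in shTet1, with −1.06 within replicates 1 and 2 and −0.47 within replicates 3 to 5, and by 0.07 in shTet2.

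Syce1 (chromosome 7, 147963128 to 147973753, minus strand), a central element protein, had 1266, 1906, 2039, 1685 and 2954 normalised reads with shScr, 622, 791, 1396, 1258 and 2485 with shTet1, and 1526, 1588, 1264, 1853 and 2653 with shTet2. Again shTet1 replicates 1 and 2 were the lowest, and replicate 5 was the highest in each group. Its difference in shTet1 was −0.68 ± 0.295 (SE, 95% limits of −1.30 and −0.06, Benjamini-Hochberg adjusted limma p of 0.366), lower in 5 of 5 same-numbered pairs, and 0.0319 was the limma Benjamini-Hochberg adjusted p with the replicate block. The difference was −1.11 within replicates 1 and 2 and −0.40 within replicates 3 to 5. In shTet2 it was −0.14.

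Hormad1 (chromosome 3, 95363599 to 95391593, plus strand), which marks unsynapsed meiotic axes, had 981, 999.9, 857, 1450.2 and 536 normalised reads with shScr, 647, 562, 502, 625 and 629 with shTet1, and 964, 969, 515, 1111 and 473 with shTet2. The shTet1 libraries were all below 4 of the 5 shScr libraries, and in shTet2 replicates 3 and 5 were the low ones. It differed by −0.61 ± 0.241 (SE, 95% limits of −1.11 and −0.10, Benjamini-Hochberg adjusted limma p of 0.310) in shTet1 and by −0.26 in shTet2, and passed in shTet1 with the replicate block (Benjamini-Hochberg adjusted limma p of 0.0461), as did Sycp2 (0.0460). Its paralogue Hormad2 was much lower, with a level per length of 1.14 against 21.1, and differed by −0.27 and 0.17. Sycp1, the transverse filament protein, had 1 shTet1 library (replicate 5, 815 normalised reads) above all others and differed by −0.17 and 0.11. Syce2, the second central element protein listed, kept within narrow ranges, at 535 to 691, 568 to 799 and 581 to 689 normalised reads in shScr, shTet1 and shTet2. Sycp3 differed by 0.02 and 0.44, the latter being 1.00 within replicates 1 and 2 and 0.07 within replicates 3 to 5.

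The 3 subunits of meiotic cohesin, the ring that holds sister chromatids together, had mixed directions in shTet1. Rec8 (chromosome 14, 56236874 to 56244232, plus strand), the meiotic kleisin, had 148, 142, 146, 56.6 and 66.8 normalised reads with shScr, 223, 342, 118, 208 and 72.2 with shTet1, and 281, 325, 111, 169 and 91.7 with shTet2. Replicates 1 and 2 were the highest in both knockdowns, and replicates 3 and 5 of the knockdowns lay below the 3 highest control libraries. Rec8 differed by 0.57 ± 0.343 (SE, 95% limits of −0.15 and 1.29, Benjamini-Hochberg adjusted limma p of 0.563) in shTet1 and by 0.60 ± 0.343 (SE, 95% limits of −0.12 and 1.32, Benjamini-Hochberg adjusted limma p of 0.539) in shTet2, so that the intervals included 0.

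Stag3 (chromosome 5, 138721468 to 138753621, plus strand), the STAG subunit of meiotic cohesin, had 1551, 1646, 892, 1542 and 899 normalised reads with shScr, 1386, 1138, 659, 1096 and 572 with shTet1, and 1461, 1594, 806, 1385 and 844 with shTet2. Replicates 3 and 5 were low in every group, and shTet1 was below shScr in 5 of 5 same-numbered pairs. The difference in shTet1 was −0.44 ± 0.258 (SE, 95% limits of −0.98 and 0.10, Benjamini-Hochberg adjusted limma p of 0.549). With the replicate block, which removes the shared level of same-numbered libraries, the limma Benjamini-Hochberg adjusted p was 0.0176 with an SE of 0.0941. In shTet2 Stag3 differed by −0.10. Smc1b, the meiotic SMC1, was highest in replicate 4 of shScr and shTet2 (2305 and 2621 normalised reads) and differed by −0.09 and 0.43.

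Meiotic recombination was represented by 4 members. Spo11, which makes the double-strand breaks, had 0 reads in 11 libraries and 1 or 2 in the other 4, and was not tested. At the depth of these libraries, a count of 0 allows up to 3 reads, or 0.0847 to 0.197 RPM. Mei1, required for break formation, also stayed near detection, at 1.14 to 5.55, 2.92 to 10.2 and 1.48 to 7.99 normalised reads in shScr, shTet1 and shTet2. Dmc1, the meiotic strand exchange recombinase, differed by 0.38 and 0.29 (Benjamini-Hochberg adjusted limma p of 0.525 and 0.677).

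Tex15 (chromosome 8, 34627210 to 34696054, plus strand), needed for meiotic recombination in males, had 853, 2002, 843, 974 and 542 normalised reads with shScr, 632, 806, 487, 777 and 368 with shTet1, and 1209, 1793, 874, 1224 and 722 with shTet2. Replicate 2 was the highest and replicate 5 the lowest in each group, with shTet1 the lowest of the groups for every replicate number. Its difference in shTet1 was −0.65 ± 0.290 (SE, 95% limits of −1.26 and −0.04, Benjamini-Hochberg adjusted limma p of 0.382). The replicate block gave a limma Benjamini-Hochberg adjusted p of 0.0106, the lowest of the members in that comparison. Between the knockdowns Tex15 differed by 0.87 ± 0.290 (SE, 95% limits of 0.26 and 1.48, Benjamini-Hochberg adjusted limma p of 0.111), with a Benjamini-Hochberg adjusted limma p of 0.000247 with the block.

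The piRNA pathway, in which PIWI proteins guided by small RNAs silence transposons in the male germ line, held 13 members. In shTet1, 9 of the 13 had a lower mean (median difference −0.15), and in shTet2 12 of the 13 had a higher mean (median 0.41), against 52.4% and 56.8% of all genes with a higher mean. Relative to shTet1, 3 of the 13 rose in shTet2: Piwil2, Asz1 and Tdrkh (2.88% of all genes were called higher). With the replicate block 6 of the 13 passed, the others being Piwil4, Mael and Mov10l1, where 6.52% of all genes were called higher.

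Piwil2 (chromosome 14, 70772287 to 70828901, minus strand) encodes MILI, the PIWI protein of fetal and postnatal male germ cells. It had 414, 261, 380.4, 429 and 460.1 normalised reads with shScr, 281, 226, 253, 319 and 264 with shTet1, and 719, 586, 646, 695 and 626 with shTet2. All shTet2 libraries lay above all others, and all shTet1 libraries lay below 4 of the 5 shScr libraries, shScr replicate 2 being the exception. It was the only 1 of the 39 members without overlap between shTet2 and shScr, where 341 of 19490 genes were higher without overlap. Piwil2 rose in shTet2 by 0.72 ± 0.147 (SE, 95% limits of 0.41 and 1.03, Benjamini-Hochberg adjusted limma p of 0.0372), a 1.68-fold ratio of mean normalised reads, with an exact permutation p of 0.00794. This call was not firm: the adjusted p rose to between 0.0530 and 0.118 in limma when any of 10 of the 15 libraries was left out (shScr replicates 1, 2, 3 and 5, shTet1 replicate 3 and each shTet2 library), while the difference stayed between 0.59 and 0.78. The call was also lost with median centring (0.61, Benjamini-Hochberg adjusted limma p of 0.0908), on log2 of normalised reads plus 1 and with only shTet2 and shScr in the fit. Without the 4 libraries of high receptor share the difference was 0.74 (Benjamini-Hochberg adjusted limma p of 0.175). It was 0.91 within replicates 1 and 2 and 0.59 within replicates 3 to 5.

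Relative to shTet1, Piwil2 was higher in shTet2 by 1.18 ± 0.147 (SE, 95% limits of 0.87 and 1.49, Benjamini-Hochberg adjusted limma p of 0.000146), or 2.44-fold in mean normalised reads. It kept this call in each of the 15 fits without 1 library and without the 4 libraries of high receptor share (1.22, Benjamini-Hochberg adjusted limma p of 0.00628). Within replicates 1 and 2 the difference was 1.25, and within replicates 3 to 5 it was 1.14. In shTet1 against shScr it differed by −0.47 ± 0.147 (SE, 95% limits of −0.77 and −0.16, Benjamini-Hochberg adjusted limma p of 0.191), and with the replicate block gave a Benjamini-Hochberg adjusted limma p of 0.0255.

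Asz1 (chromosome 6, 18000964 to 18059061, minus strand) encodes a protein of the outer mitochondrial membrane on which piRNA precursors are processed. It had 23.5, 20.1, 16.0, 11.1 and 18.5 normalised reads with shScr, 8.76, 10.7, 3.83, 4.15 and 10.2 with shTet1, and 23.7, 23.1, 22.2, 32.5 and 21.2 with shTet2. These are few reads, and all shTet1 libraries lay below all libraries of the other groups. Asz1 rose in shTet2 relative to shTet1 by 0.68 ± 0.145 (SE, 95% limits of 0.38 and 0.99, Benjamini-Hochberg adjusted limma p of 0.00954), which the variance-stabilised scale compresses, since the ratio of mean normalised reads was 3.27. Against shScr it differed by −0.46 ± 0.145 (SE, 95% limits of −0.77 and −0.16, Benjamini-Hochberg adjusted limma p of 0.186) in shTet1, with an exact permutation p of 0.00794, and by 0.22 in shTet2. The difference between the knockdowns was 0.52 within replicates 1 and 2 and 0.80 within replicates 3 to 5. Its call was kept in each fit without 1 library and lost with quantile normalisation, and without the 4 libraries of high receptor share the difference was 0.49 (Benjamini-Hochberg adjusted limma p of 0.175). Both shTet1 libraries of lowest Asz1, replicates 3 and 4, are among those 4.

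Tdrkh (chromosome 3, 94217218 to 94236555, plus strand) encodes a tudor protein of the mitochondrial surface that takes part in piRNA trimming. It had 76.8, 59.0, 96.0, 169 and 142 normalised reads with shScr, 79.6, 76.5, 77.9, 99.5 and 62.0 with shTet1, and 119.5, 185, 201, 210.1 and 141 with shTet2. All shTet2 libraries were above all shTet1 libraries, and shScr overlapped with both. Tdrkh rose in shTet2 relative to shTet1 by 0.85 ± 0.208 (SE, 95% limits of 0.42 and 1.29, Benjamini-Hochberg adjusted limma p of 0.0231), or 2.16-fold in mean normalised reads. In limma the adjusted p was 0.0510 to 0.0653 without shTet1 replicate 2 or 5 or shTet2 replicate 2, 3 or 4, and 0.0940 without the 4 libraries of high receptor share, where the difference was 0.86. The difference from shScr was −0.28 in shTet1 and 0.57 ± 0.208 (SE, 95% limits of 0.13 and 1.00, Benjamini-Hochberg adjusted limma p of 0.265) in shTet2.

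Tdrd5 (chromosome 1, 158185426 to 158233795, minus strand), a tudor protein of germ cell granules which this annotation lists as a lincRNA, had 133, 153, 198, 166 and 170.5 normalised reads with shScr, 262, 352, 251.6, 406 and 144 with shTet1, and 222, 245, 216, 288 and 186 with shTet2. It went against most of the pathway, with 4 of 5 shTet1 libraries above all shScr libraries and replicate 5 low. The difference in shTet1 was 0.62 ± 0.201 (SE, 95% limits of 0.20 and 1.04, Benjamini-Hochberg adjusted limma p of 0.202). It passed with the replicate block (Benjamini-Hochberg adjusted limma p of 0.0406) and without shTet1 replicate 5 (0.0392), where it was 0.81. In shTet2 it differed by 0.42 (Benjamini-Hochberg adjusted limma p of 0.437).

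Mael (chromosome 1, 168131516 to 168168875, minus strand), a protein of germ cell granules required for transposon silencing, had 609, 561, 418, 472 and 515 normalised reads with shScr, 699, 579.9, 289, 340.1 and 414 with shTet1, and 1371, 1176, 479, 724 and 494 with shTet2. Replicates 1 and 2 of shTet2 were the highest of all libraries by a wide margin. Mael differed by 0.57 ± 0.269 (SE, 95% limits of 0.01 and 1.13, Benjamini-Hochberg adjusted limma p of 0.423) in shTet2, with 1.07 within replicates 1 and 2 and 0.24 within replicates 3 to 5. In shTet1 it differed by −0.19, and turned from 0.12 to −0.40 between the replicate sets. Between the knockdowns the replicate block gave a Benjamini-Hochberg adjusted limma p of 0.00360. Mov10l1 (chromosome 15, 88813339 to 88885582, plus strand), the helicase that starts piRNA precursor processing, had 358, 396, 378, 411 and 611 normalised reads with shScr, 384, 421, 324, 384 and 485 with shTet1, and 458, 644, 523, 644 and 626 with shTet2. The shTet2 libraries lay above the shScr libraries except replicate 5, which was above 2 of them. The difference was 0.41 ± 0.157 (SE, 95% limits of 0.08 and 0.74, Benjamini-Hochberg adjusted limma p of 0.293).

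Tdrd9 (chromosome 12, 113209770 to 113307065, plus strand), a tudor domain helicase, had 48.1, 60.2, 26.3, 37.7 and 16.4 normalised reads with shScr, 22.6, 11.5, 15.3, 28.0 and 13.5 with shTet1, and 50.7, 33.1, 20.7, 41.1 and 19.0 with shTet2. All shTet1 libraries were under 30 normalised reads, as were 2 shScr and 2 shTet2 libraries. It differed by −0.50 ± 0.206 (SE, 95% limits of −0.94 and −0.07, Benjamini-Hochberg adjusted limma p of 0.329) in shTet1, with −0.91 within replicates 1 and 2 and −0.23 within replicates 3 to 5. Piwil4, which encodes the nuclear PIWI protein MIWI2, spread widely within groups: its lowest, median and highest library had 33.9, 68.8 and 163 normalised reads with shScr, 15.8, 38.3 and 76.6 with shTet1, and 25.7, 119 and 324 with shTet2. Replicate 5 was the lowest in each group. Its difference was −0.64 in shTet1, 0.50 in shTet2 and 1.14 ± 0.399 (SE, 95% limits of 0.30 and 1.97, Benjamini-Hochberg adjusted limma p of 0.136) between the knockdowns, where the replicate block gave an adjusted p of 0.000325.

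The remaining members of the pathway passed in no comparison. Piwil1, the pachytene PIWI protein MIWI, had 21.6 to 53.3 normalised reads in shScr, 18.2 to 91.2 in shTet1 and 15.7 to 119.9 in shTet2, and differed by 0.21 and 0.45 in the knockdowns. Tudor proteins Tdrd1, Tdrd6 and Tdrd7 differed by 0.05, 0.14 and −0.08 in shTet1 and by 0.11, 0.16 and 0.27 in shTet2, each with an unadjusted p above 0.05. Tdrd6 had at most 7.91 normalised reads in any library.

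Among the 4 other testis proteins, Tex101 (chromosome 7, 25453031 to 25457069, minus strand), a germ cell surface glycoprotein, had 17.4, 12.5, 16.0, 22.2 and 11.3 normalised reads with shScr, 4.38, 3.83, 3.83, 8.30 and 6.77 with shTet1, and 30.1, 29.2, 10.4, 22.3 and 11.2 with shTet2. All shTet1 libraries lay below all libraries of the other groups, and in shTet2 replicates 1 and 2 were highest and replicates 3 and 5 lowest. Tex101 rose in shTet2 relative to shTet1 by 0.65 ± 0.162 (SE, 95% limits of 0.31 and 0.99, Benjamini-Hochberg adjusted limma p of 0.0249), a 3.80-fold ratio of mean normalised reads at low counts. The limma adjusted p was 0.0606 to 0.0815 without shTet1 replicate 1, 2 or 3 or shTet2 replicate 1, 2 or 4, and 0.146 without the 4 libraries of high receptor share, and the call was also lost with quantile normalisation. The difference was 1.04 within replicates 1 and 2 and 0.40 within replicates 3 to 5. Against shScr it was −0.52 ± 0.162 (SE, 95% limits of −0.85 and −0.18, Benjamini-Hochberg adjusted limma p of 0.186) in shTet1, with an exact permutation p of 0.00794.

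Slc25a31 (chromosome 3, 40512777 to 40529515, plus strand), the ADP/ATP carrier of male germ cell mitochondria, had 38.9, 59.0, 37.7, 64.4 and 71.9 normalised reads with shScr, 39.4, 20.7, 28.1, 35.3 and 50.8 with shTet1, and 68.9, 80.8, 44.4, 82.2 and 67.1 with shTet2. The groups overlapped in both comparisons with shScr, with shTet1 replicate 2 the lowest library. It differed by −0.39 ± 0.181 (SE, 95% limits of −0.77 and −0.01, Benjamini-Hochberg adjusted limma p of 0.409) in shTet1 and by 0.62 ± 0.181 (SE, 95% limits of 0.24 and 1.00, Benjamini-Hochberg adjusted limma p of 0.0617) between the knockdowns, where the replicate block gave a Benjamini-Hochberg adjusted limma p of 0.0135. Tex14, needed for the bridges between germ cells, differed by 0.09 and −0.09 in shTet1 and shTet2. Dpep3, a membrane dipeptidase of the testis, had at most 13.9 normalised reads and differed by 0.11 and −0.01.

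Some members differed between the replicate sets. In 3 members, Stag3, Mael and Piwil4, both of replicates 1 and 2 were above all of replicates 3 to 5 in each of the 3 groups, as in 2.82% of all genes, and in 0 members were they below (3.19% of all genes). Of the 20 members with values in every library, the difference in shTet1 turned sign between the sets for Mael, Mov10l1, Sycp3 and Tdrkh, that in shTet2 for Stra8, Syce1, Sycp2, Taf7l and Tex101, and that between the knockdowns for Rec8. Another 10, 13 and 12 kept their sign but differed more than 1.5-fold between the sets in the 3 comparisons. Without the 4 libraries of high receptor share, 2, 1 and 1 of the 20 turned sign, namely Mael and Mov10l1 in shTet1, Taf7l in shTet2 and Rec8 between the knockdowns. The median difference of the members in shTet1 was −0.09 within replicates 1 and 2 and −0.23 within replicates 3 to 5. In shTet2 it was 0.27 within replicates 1 and 2 and 0.07 within replicates 3 to 5. Without the 4 libraries of high receptor share the medians were −0.04 in shTet1 and 0.17 in shTet2. The part of the replicate set and of the receptor reads in these differences was not tested further.

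The promoter classes were set beside the differences as a description. The 14 members with an E-box had median differences of −0.19 in shTet1 and 0.14 in shTet2, and the 21 without had −0.08 and 0.17. Between the knockdowns the medians were 0.42 and 0.10. The 22 members with a CpG ratio of at least 0.6 had a median of 0.43 between the knockdowns, and the 13 others 0.06. Their median levels were 580 and 67.5 normalised reads, and the scale shrinks changes of genes with few reads. The classes are thus not on an equal footing, and all genes were not split by CpG ratio.

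Other genes of the same programmes were followed in lists. At an unadjusted limma p under 0.05, 6.55% of all genes were higher and 5.23% lower in shTet1. These shares were 8.00% and 3.58% in shTet2, and 9.32% and 6.37% between the knockdowns. Of 11 further piRNA pathway genes tested, 0 passed against shScr in either knockdown in limma (3 with an unadjusted p under 0.05 in shTet1 and 2 in shTet2), and Tdrd3, a tudor protein of many cell types, was the only one called between the knockdowns (−0.51 in shTet2 relative to shTet1, Benjamini-Hochberg adjusted limma p of 0.0230). Of 17 further meiosis genes, 0 passed in any comparison in limma (1, 2 and 3 with an unadjusted p under 0.05 in shTet1, in shTet2 and between the knockdowns), with median differences of −0.02 in shTet1 and −0.03 in shTet2. Of 17 further germ cell genes, 0 passed in shTet1 (5 with an unadjusted p under 0.05), 1 rose in shTet2 and 2 rose in shTet2 relative to shTet1. Of these 17, 9 had a higher mean in shTet1 (median difference 0.07) and 16 in shTet2 (0.25), against 52.4% and 56.8% of all genes. Between the knockdowns 13 had a higher mean in shTet2 (median 0.25), against 52.7% of all genes. The gene that rose against shScr was Dppa3, a factor of oocytes and primordial germ cells, at 382 ± 200.4 normalised reads with shScr, 788 ± 215 with shTet1 and 1020.3 ± 308 with shTet2 (SD over 5 libraries). Its difference was 1.41 in shTet2 (Benjamini-Hochberg adjusted limma p of 0.0372) and 1.07 in shTet1 (0.126). The 2 called between the knockdowns were Usp26, an X-linked testis deubiquitinase, which differed by 1.24 (adjusted p = 0.0245 in limma), and Tktl1, a transketolase-like gene, by 0.77 (0.0156).

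Known repressors of germline genes were also followed. Of 25 genes of PRC1.6, of histone H3 lysine 9 methylation and of DNA methylation, 0 passed in any comparison in limma. At an unadjusted limma p under 0.05, 0 differed in shTet1, where 6.55% of all genes were higher and 5.23% lower. In shTet2 5 were lower (3.58% of all genes), and between the knockdowns 5 were lower and 1 higher (6.37% and 9.32%). The 5 lower than in shScr, named after their values were seen, were Tfdp1 (−0.51), L3mbtl2 (−0.38), Pcgf6 (−0.32), Rnf2 (−0.37) and Wdr5 (−0.42). The maintenance methyltransferase Dnmt1 differed by 0.02 and −0.11 in shTet1 and shTet2, and Dnmt3l, the cofactor of de novo methylation, by −0.46 and 0.22.

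Markers of other cell types were summed per library. The summed level of 8 late spermatogenic genes was 0.0446 to 0.377 RPM in shScr, 0.11 to 0.283 in shTet1 and 0.0984 to 0.508 in shTet2, against 909.5 to 1423, 769 to 1071 and 907 to 1579 for the 40 members. The 7 gonadal somatic genes summed to 1.38 to 4.25, 1.24 to 2.96 and 1.27 to 2.56, and the 7 fibroblast genes, of which Lum had 0 reads in all libraries, to 17.3 to 20.7, 14.4 to 20.2 and 14.6 to 21.2. In all lists of markers, 0 genes passed in any comparison in limma. At an unadjusted limma p under 0.05, 1 ESC marker was higher in shTet1 than in shScr (6.55% of all genes). In shTet2, 2 ESC markers were lower than in shTet1 (6.37% of all genes). Of the 9 ESC markers, 8 had a higher mean in shTet1 and 2 in shTet2 than in shScr, and 9 had a lower mean in shTet2 than in shTet1, whereas 31 of the 39 members had a higher one. The part of this in the members' differences was not tested.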

How the data were processed

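RNA-seq of 15 E14 libraries was used. The authors trimmed reads with Trim Galore 0.3.3, aligned them to mm9 with TopHat2 2.0.9, keeping 1 position for a read with several, counted them per gene in Seqmonk and transformed the counts with DESeq2. The deposited gene table holds the variance-stabilised log2-like values that the authors computed, in which 4.25 stands for 0 reads. When the transformation was inverted, 100% of the values came out as whole reads (tolerance 0.05 reads), which gave each library its reads and size factor. Depth was 15258291 to 35432425 gene reads per library. The libraries were directional, but use of strand in counting is not given in the sources used here. The deposited repeat table was not used here.

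Genes detected (above that minimum) in 5 or more of 15 libraries (19490) were fitted with limma 3.58.1 in R 4.3.3 (lmFit, eBayes with a variance trend, two-sided), with all libraries in 1 fit and group as the only term, and p-values were Benjamini-Hochberg adjusted over all genes with a threshold of 0.05. The test of the authors, DESeq2, takes raw counts, so that limma was used in its place on the deposited values. Exact permutation tests of 5 against 5 libraries were two-sided. Same-numbered libraries deviated together between shTet1 and shScr (r across genes 0.374 to 0.657) and between shTet2 and shTet1 (0.330 to 0.731). The replicate number was therefore also fitted as a block, in 1 fit of all 15 libraries. That fit also joins replicate 3 of shTet2 and shScr, which had r = 0.00789, and the pairing itself was not tested. The fit was tested on simulated data.

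The members and lists were chosen with earlier results of these data known. Values in every library are given for members past the threshold, members with an unadjusted p under 0.05 against shScr, the 3 largest increases and decreases against shScr with a mean of at least 10 normalised reads, and the 3 highest levels per length. Promoters are from RefSeq (GRCm38.p6), positions from GENCODE vM1 (mm9). Alternatives covered the filter, scale, normalisation, weights, block, replicate set, receptor share and each library left out. Weights by voom and leaving out the 4 libraries of high receptor share were added after seeing the data.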

Additional observations from a re-analysis of the deposited data

Results flagged for a closer look

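In groups of 5 libraries, each named member was looked at for a library far from the rest, by Dixon's gap test on the deposited values. Of 60 groups, 2 held one, and chance flags about 1 in 20. Asz1 in shTet2 had 32.5 normalised reads in replicate 4 and 21.2 to 23.7 in the other 4 libraries, and replicate 4 is one of the libraries of high receptor share. Mov10l1 in shScr had 611 normalised reads in replicate 5 and 358 to 411 in the other 4.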

How the results depend on the processing

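The number of members called depended on the fit. For shTet1 against shScr it was 0 and became 9 with the replicate block, and it was 0 to 1 without 1 library each, with Tdrd5 called without shTet1 replicate 5. For shTet2 against shScr it was 1 and became 0 with a minimum difference of 1, with log2 of normalised reads plus 1, with median centring, with only these 2 groups in the fit and without the 4 libraries of high receptor share. It was 4 with the replicate block (Piwil2, Brdt, Mael and Mov10l1, with 840 of all genes), which was not taken as the pairing here because replicate 3 had r = 0.00789 although the other 4 pairs had 0.400 to 0.769, and 0 to 1 without 1 library each. For shTet2 against shTet1 it was 5 and became 10 with array weights, 9 with a term for replicates 1 and 2, 14 with the replicate block, 3 with quantile normalisation, 1 with a minimum difference of 1 and 1 without the 4 libraries, and it was 3 to 6 without 1 library each. Median centring turned the calls over all genes in shTet2 against shScr from 43 higher and 33 lower to 5 and 34 (16 and 29 with quantile normalisation), and moved shTet2 against shTet1 from 561 and 266 to 437 and 327 (444 and 297). The replicate block took the calls over all genes from 14 to 935 in shTet1 against shScr and from 827 to 2178 between the knockdowns. With voom weights on the recovered reads 0, 1 and 6 members were called in the 3 comparisons. Calls over all genes with voom weights, array weights and the term for replicates 1 and 2 are not given here. The member counts under these settings can therefore not be read as particular to the members. The median difference of the members kept its direction in every alternative run, from −0.23 to −0.04 in shTet1, from 0.06 to 0.37 in shTet2 and from 0.21 to 0.48 between the knockdowns. In the comparison where a member had an unadjusted limma p under 0.05, it did not reverse its direction in any alternative. Such members were taken for their difference in that comparison, which makes a reversal there unlikely beforehand. In other comparisons some of the same members turned sign between the replicate sets, as given above. Of 992 values of single members under alternatives, 915 stayed on their side of the adjusted threshold, 42 lost it and 35 gained it. These values belong to 31 pairs of member and comparison with an unadjusted limma p under 0.05. Only 1 pair in shTet2 and 5 between the knockdowns were called in the main fit. The 42 losses all fall on those calls, and most of the 915 are uncalled values that stayed uncalled. The 915 therefore do not measure how stable the calls are. Low counts limit Spo11, Mei1, Tdrd6, Dpep3, Tex101 and Asz1, for which small changes could not be detected at this depth.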
